A study of Mus musculus with 4 samples.

Results

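The genes described here are 10 ligands and receptors through which neurons and microglia exchange signals, chosen by name from the 31053 genes in the count tables: the ligands *Cx3cl1*, *Cd200*, *Il34*, *Csf1*, *Tgfb1* and *Tgfb2*, and the receptors *Csf1r*, *Cx3cr1*, *Tgfbr1* and *Tgfbr2*. They were measured by single-nucleus RNA-seq of punches of the arcuate nucleus (ARC), a hypothalamic nucleus that controls feeding and energy balance. All mice were wildtype C57BL/6J males, 10 weeks of age. The study compared DOCA-salt, in which an implanted pellet of the mineralocorticoid deoxycorticosterone acetate is combined with saline to drink, with Sham surgery, each for 3 weeks. Each group had 2 libraries, and each library held the nuclei of 2 mice mixed after isolation, so that single animals cannot be told apart and p-values measure the spread among these pools.

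CX3CL1 (fractalkine) is made by neurons, and its receptor CX3CR1 is held in the brain by microglia, the resident macrophages. CD200, a membrane glycoprotein of neurons and endothelium, restrains myeloid cells through the receptor CD200R1. Microglia need CSF1R to survive. This receptor has a pair of ligands, IL34, which is made largely by neurons, and CSF1, which is made largely by glia. TGF-beta ligands act through a complex of TGFBR1 and TGFBR2 and keep microglia in their homeostatic state.

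The CX3C pair is shown by sequence because its ligand and receptor peaked in different classes of nuclei. The 250 bases upstream of each RefSeq start are given 5′ to 3′ on the gene's strand (RefSeq, GRCm38.p6). The GENCODE gene spans printed with the values begin further upstream than the RefSeq starts, so these windows overlap the *Cx3cl1* span and lie inside the *Cx3cr1* span. Capitals mark GAGGAA, the core of sites bound by the myeloid factor PU.1, and GGGCGG, the GC box, each searched on both strands, so that TTCCTC and CCGCCC also count. No 2 matches in the windows shown share a letter.
Cx3cl1, chr8:94771930-94772179, plus strand: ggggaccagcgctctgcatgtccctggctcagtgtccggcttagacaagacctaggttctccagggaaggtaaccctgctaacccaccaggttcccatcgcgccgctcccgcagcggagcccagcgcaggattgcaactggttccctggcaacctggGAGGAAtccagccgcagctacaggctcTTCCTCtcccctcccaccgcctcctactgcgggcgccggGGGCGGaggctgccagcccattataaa
Cx3cr1, chr9:120068297-120068546, minus strand: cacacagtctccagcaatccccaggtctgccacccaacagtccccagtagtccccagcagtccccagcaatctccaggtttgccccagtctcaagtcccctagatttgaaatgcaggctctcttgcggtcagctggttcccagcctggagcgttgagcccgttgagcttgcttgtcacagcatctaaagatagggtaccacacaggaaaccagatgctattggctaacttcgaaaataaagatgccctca
The *Cx3cl1* window held 2 GAGGAA and 1 GGGCGG, and the *Cx3cr1* window held 0 of either. Of 32851 upstream windows of the same length, 23.2% held GAGGAA and 32.7% held GGGCGG. Windows were at hand for 8 of the 10 genes, and those of *Il34* and *Csf1r* were not used here. These matches are descriptions of the letters.

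The 4 libraries kept 10307, 18907, 2203 and 7759 nuclei at a median of 2401, 2534, 8215 and 3278 UMIs (unique molecular identifiers, 1 for each captured RNA molecule). Values are given in this order of DOCA-salt 1, DOCA-salt 2, Sham 1 and Sham 2. Sham 1 thus had the fewest and deepest nuclei. Pairs of libraries shared 5 to 49 barcodes. Nuclei were put into classes by fixed markers that include none of the 10 genes, and 6 classes had at least 10 nuclei in every library: neurons (6623, 11130, 1495 and 4795 nuclei), astrocytes, oligodendrocytes, oligodendrocyte precursor cells (OPC), endothelial nuclei and microglia (114, 138, 11 and 77 nuclei). Markers held out of the gates were highest in their own class in every library for 6 of 6 microglial genes, 3 of 3 neuronal, oligodendrocyte and endothelial genes, 2 of 2 OPC genes and 2 of 3 astrocyte genes. Nuclei that passed a non-neuronal gate but could not be placed in a single class were left out as mixed (684, 2846, 442 and 1124 nuclei). The pericyte marker *Rgs5* stood at 765 to 984 CPM (UMIs of a gene per 1000000 UMIs of the class) in the endothelial class. It stood at 918 to 3293 CPM in the few mural nuclei and at no more than 67.3 CPM in the other classes tested. Pericyte RNA was not separated from the endothelial values given below. The neuronal markers *Meg3*, *Snhg11* and *Uchl1* reached 0.19 to 0.86 of their neuronal CPM in nuclei of the other classes, a range against which the neuronal ligands can be read. The libraries differed in the share of neurons with at least 2 UMIs of genes of surrounding regions, a limit not scaled for depth. Nuclei with striatal genes were 26.0, 8.05, 24.1 and 14.6% of neurons. Those with *Pmch* or *Hcrt*, genes of the lateral hypothalamus, were 0.408, 39.7, 3.68 and 0.584%. Stray RNA was not removed, so these shares do not count cells of those regions. The paper's *Pmch* cluster held far fewer DOCA-salt nuclei than the 4421 of DOCA-salt 2 counted here. Neurons with at least 5 UMIs of *Agrp*, a defining gene of the ARC, numbered 407, 1, 37 and 140, so DOCA-salt 2 all but lacked them.

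The neuronal ligands come first. *Cx3cl1* (chr8:94772009-94782427, GRCm38, plus strand, with no overlapping gene) was highest in neurons, at 220.0, 189, 154 and 158 CPM. In microglia it stood at 74.0, 62.8, 22.4 and 87.1 CPM, on 10, 8, 1 and 11 UMIs. Neurons were higher than microglia in all 4 libraries without overlap, with a log2 fold change of 1.32 ± 0.23 (SE, FDR 1.23e-05, edgeR on sums per class and library, here and in all tests between classes, where 23.8% of all genes differed between this pair). Against the mean of the other classes neurons were higher by 0.76 ± 0.085 on the log2 scale (FDR 2e-10). The remaining classes held *Cx3cl1* at 0.28 to 0.97 of the neuronal CPM, a range that overlaps that of the 3 neuronal markers named above. After each nucleus was thinned to 1000 UMIs, 13.4 to 19.6% of neurons had a *Cx3cl1* UMI, against 0 to 9.62% of microglia. Without thinning the ranges were 45.5 to 68.4% and 5.80 to 12.99%. Nuclei with fewer than 1000 UMIs were left out (477, 856, 4 and 304 neurons, and 80, 110, 0 and 25 microglia).

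*Cd200* (chr16:45382135-45409053, minus strand) had a pair of sources. Neurons held 266, 214, 225 and 255 CPM. Endothelial nuclei held 306, 202, 246 and 225 CPM, on 20 to 41 UMIs a library. These ranges overlapped, and the neuron-to-endothelium difference was -0.12 ± 0.15 on the log2 scale (FDR 0.603), where 26.2% of genes passed the same test. Both classes were above the mean of the others, by 0.53 ± 0.071 in neurons (FDR 2.02e-08) and 0.68 ± 0.16 in endothelial nuclei (FDR 0.00117). The endothelial-to-neuron ratio of *Cd200* was 0.88 to 1.15, while that of *Meg3* was 0.19 to 0.48, of *Snhg11* 0.22 to 0.53 and of *Uchl1* 0.53 to 0.66. In every library, then, endothelial *Cd200* lay above what neuronal markers reached in the same nuclei. In astrocytes, oligodendrocytes, OPC and microglia the *Cd200* ratio was 0.40 to 0.72, and there it overlapped that of *Uchl1*.

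**Figure D1:**
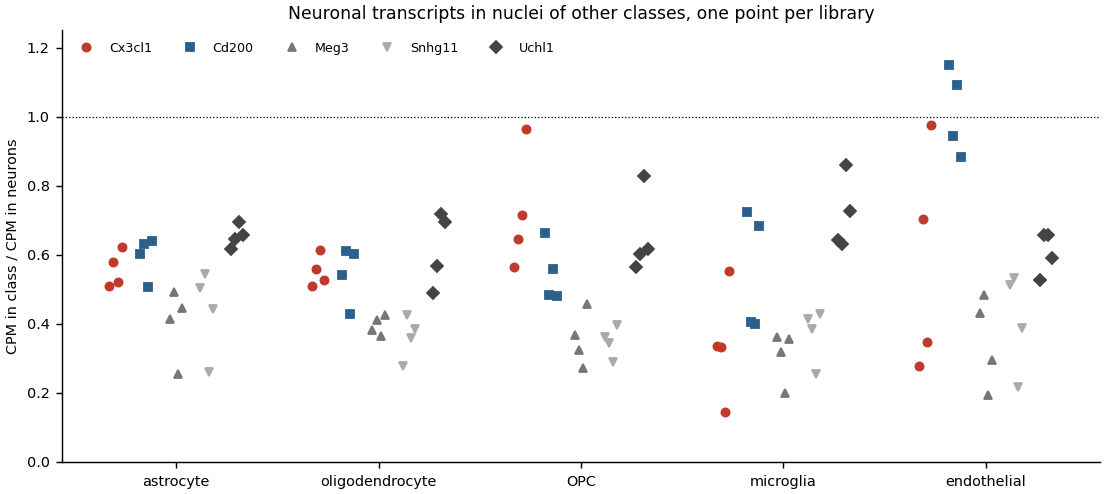
CPM in each non-neuronal class divided by CPM in neurons of the same library (1 point per library, dotted line at 1), for 2 ligands and 3 neuronal markers. *Cd200* in endothelial nuclei sits between 0.88 and 1.15, above the 3 markers in that class, while *Cx3cl1* ranges from 0.15 to 0.97 over the classes and overlaps the markers.

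*Il34* (chr8:110741829-110805924, minus strand, overlapped on the other strand by the predicted genes *Gm15894* and *Gm15895*) was sparse. Neurons had 25.5, 25.8, 22.4 and 21.9 CPM, on 337 to 1178 UMIs. Astrocytes had 9.42, 14.5, 11.7 and 9.80 CPM, below every neuronal value. Endothelial nuclei had 0, 39.4, 32.1 and 0 CPM, on 0, 8, 3 and 0 UMIs, and could not be ordered against neurons. *Il34* did not pass the count filter of the fit across classes. Without that filter neurons were higher than the mean of the others by 0.62 ± 0.18 on the log2 scale (FDR 0.00413). The few mural nuclei, too few to test, gave 6 *Il34* UMIs in all 4 libraries together, which is 203 CPM with an exact Poisson interval of 74.6 to 442 CPM. This interval and those below are at 95% and cover counting error only.

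Within neurons, *Il34* was higher in glutamatergic than in GABAergic nuclei. Glutamatergic neurons (753, 901, 115 and 491 nuclei) had 29.6, 36.3, 24.8 and 32.3 CPM. GABAergic neurons (3291, 6531, 944 and 2670 nuclei) had 23.5, 22.2, 19.8 and 18.4 CPM. The GABAergic values were lower in 4 of 4 libraries, by 0.59 ± 0.11 on the log2 scale (FDR 0.0134), and this test was added after the data were seen. *Il34* was the only 1 of the 10 genes called in that comparison, where 8.85% of all genes were called. For *Cx3cl1* the same difference was -0.28 ± 0.10 (FDR 0.122) and for *Cd200* -0.13 ± 0.071 (FDR 0.302).

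*Csf1* (chr3:107741048-107760469, minus strand) had another source. Oligodendrocytes held 104, 45.4, 58.2 and 84.5 CPM, on 26, 55, 35 and 102 UMIs. Neurons held 24.3, 14.99, 22.4 and 27.5 CPM. The lowest oligodendrocyte value lay above the highest neuronal one, and neurons were lower by 1.81 ± 0.16 on the log2 scale (FDR 8.61e-14), in a pair where 49.3% of genes differed. Astrocytes, at 24.3, 18.8, 43.9 and 35.7 CPM, overlapped neurons but were higher by 0.50 ± 0.16 (FDR 0.00825), where 46.9% of genes differed. In microglia *Csf1* rested on 3, 3, 0 and 3 UMIs, and the difference between neurons and microglia, -0.0047 ± 0.52 on the log2 scale, was too wide to order them. Neurons, the most numerous class, held 58.7 to 74.5% of all *Csf1* UMIs of a library, and oligodendrocytes 2.72 to 8.39%. The mixed nuclei, which were left out of the classes, held 12.85 to 26.9%.

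*Tgfb1* (chr7:25687002-25705077, plus strand), which encodes a secreted ligand that is stored in latent form, had its highest levels in microglia and endothelium. Microglia had 141, 62.8, 67.3 and 150 CPM, on 19, 8, 3 and 19 UMIs. Endothelial nuclei had 15.3, 24.6, 85.6 and 30.7 CPM, on 1, 5, 8 and 3 UMIs. Neurons had 1.46, 1.86, 1.99 and 1.57 CPM. Microglia and endothelium both lay above neurons without overlap, by 6.13 ± 0.41 (FDR 4.03e-17) and 4.54 ± 0.60 (FDR 3.74e-08) on the log2 scale. Microglia exceeded endothelium by 1.59 ± 0.47 (FDR 0.0174, 11.2% of genes), although Sham 1 had more in endothelium. Of all *Tgfb1* UMIs of a library, neurons held 38.5 to 51.8%, microglia 3.85 to 22.9% and endothelium 1.21 to 10.3%. The mixed nuclei, placed in no class, held 14.5 to 39.7%. OPC had 0 UMIs in all libraries, which allows up to 4.57 CPM (3 counts over the group).

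*Tgfb2* (chr1:186622792-186705989, minus strand) was highest in endothelium. Endothelial nuclei had 107, 88.7, 64.2 and 92.2 CPM, on 7, 18, 6 and 9 UMIs. Astrocytes had 35.3, 36.5, 26.3 and 33.6 CPM, and neurons 15.1, 18.0, 12.2 and 14.6 CPM. These 3 classes did not overlap. OPC, at 43.0, 9.39, 63.0 and 17.5 CPM on 9, 2, 4 and 3 UMIs, overlapped both glial and neuronal values. Neurons were below endothelium by 2.65 ± 0.33 (FDR 5.03e-09) and below astrocytes by 1.26 ± 0.17 on the log2 scale (FDR 2.91e-08). Among nuclei too few to test, ependymal nuclei came from the DOCA-salt libraries alone (4 and 33 nuclei). They held 18 *Tgfb2* UMIs, all in DOCA-salt 2, or 159 CPM over both libraries (Poisson interval 94.0 to 251 CPM).

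**Figure D2:**
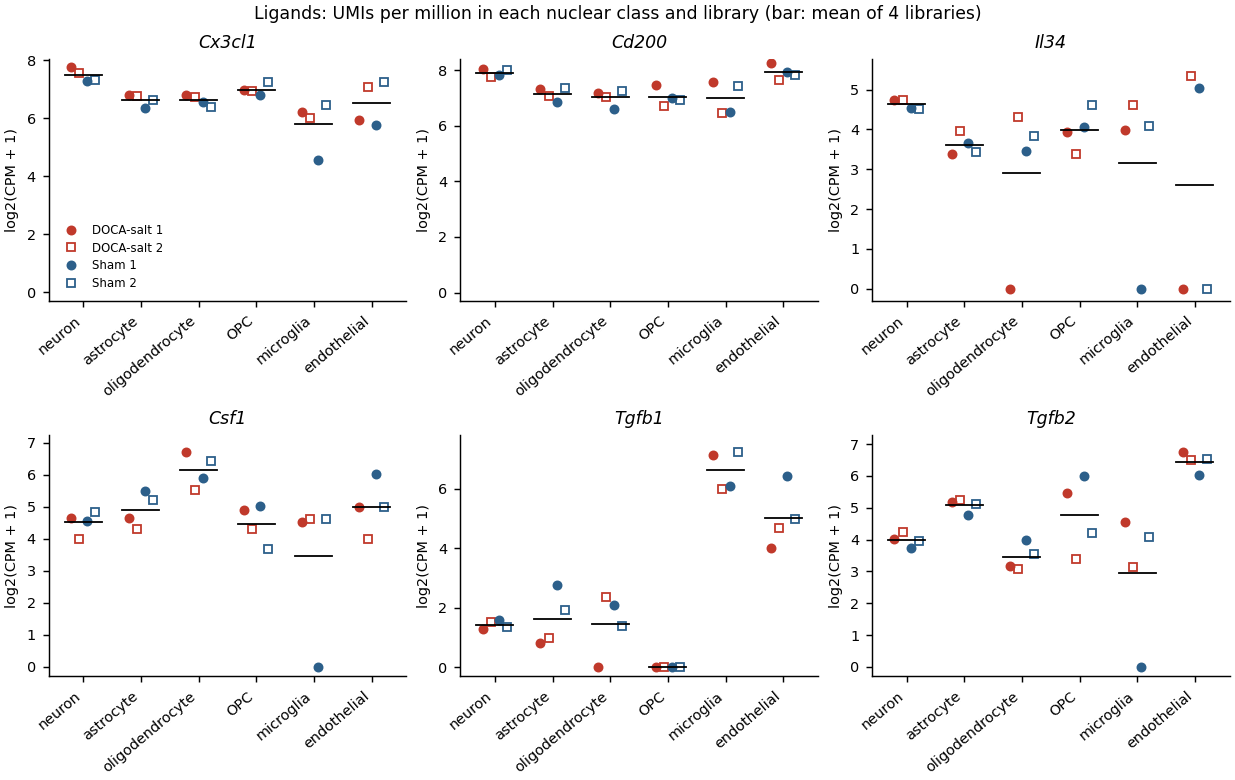
Level of each ligand as log2(CPM + 1) in the 6 classes tested (red, DOCA-salt; blue, Sham; filled circles, replicate 1; open squares, replicate 2; bars, mean of the 4 log values). *Cx3cl1* and *Il34* are highest in neurons on average, *Csf1* in oligodendrocytes, *Tgfb1* in microglia and *Tgfb2* in endothelium, and *Cd200* is as high in endothelium as in neurons.

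The receptor *Csf1r* (chr18:61100598-61132149, plus strand, overlapped on the other strand by *Hmgxb3*) stood in microglia at 888, 958, 718 and 831 CPM, on 120, 122, 32 and 105 UMIs. Neurons had 8.21, 7.70, 9.68 and 10.0 CPM. The classes did not overlap, and neurons were lower by 6.70 ± 0.17 on the log2 scale (FDR 1.9e-34). After thinning, 39.3 to 58.8% of microglia and 0.635 to 1.02% of neurons had a *Csf1r* UMI. Unthinned, they were 56.5 to 90.9% and 2.63 to 7.83%.

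*Cx3cr1* (chr9:119901616-120069879, minus strand, a span that holds other genes on both strands) had the same profile. Microglia had 866, 620.4, 919.6 and 1116 CPM, on 117, 79, 41 and 141 UMIs. Neurons had 5.96, 4.66, 10.9 and 10.5 CPM and were lower by 6.95 ± 0.20 on the log2 scale (FDR 4.98e-32). The neuronal level was 0.0069 to 0.0118 of the microglial one. For the 6 held-out microglial markers this fraction was 0.0032 to 0.132, a range that holds the *Cx3cr1* values and those of *Csf1r* (0.008 to 0.0135). The ratio of *Cx3cr1* to *Csf1r* UMIs was 0.975, 0.647, 1.28 and 1.34 in microglia and 0.726, 0.605, 1.12 and 1.05 in neurons. In both of these classes it was lower in both DOCA-salt libraries than in both Sham libraries. In microglia this order follows from *Cx3cr1* being lower and *Csf1r* higher in both DOCA-salt libraries, and is no further observation. In astrocytes, on fewer UMIs, the ratio was 0.684, 0.457, 0.90 and 0.60 and the groups overlapped. The ratio was not tested between treatments, and no share over other pairs of genes was at hand. Of single genes, 36.3% in microglia and 43% in neurons had groups without overlap.

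*Tgfbr1* (chr4:47353222-47414931, plus strand), which encodes the signalling kinase of the complex, was also microglial, at 696, 613, 673 and 752 CPM. It was also detected in every other class. Neurons had 19.96, 15.01, 19.0 and 21.6 CPM, oligodendrocytes 19.99, 23.9, 29.9 and 22.4 CPM, and endothelial nuclei 30.6, 44.3, 21.4 and 61.4 CPM. Neurons were below microglia by 5.28 ± 0.15 on the log2 scale (FDR 9.35e-33) and below endothelium by 1.31 ± 0.38 (FDR 0.00756). The ratio of *Tgfbr1* to *Csf1r* UMIs was 1.95 to 2.43 in neurons and 0.639 to 0.938 in microglia, without overlap between the classes.

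*Tgfbr2* (chr9:116084293-116175360, minus strand), the ligand-binding partner, had both a microglial and an endothelial source. Microglia had 66.6, 86.4, 112 and 71.2 CPM, on 9, 11, 5 and 9 UMIs. Endothelial nuclei had 61.2, 83.7, 42.8 and 92.2 CPM, on 4, 17, 4 and 9 UMIs. The ranges overlapped, and the difference was 0.10 ± 0.40 on the log2 scale (FDR 0.946). Neurons, at 1.77, 2.12, 1.92 and 1.32 CPM, were lower than microglia by 5.55 ± 0.42 (FDR 3.15e-15) and than endothelium by 5.45 ± 0.42 (FDR 6.11e-15). OPC again had 0 UMIs in all libraries, with the same limit of 4.57 CPM.

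**Figure D3:**
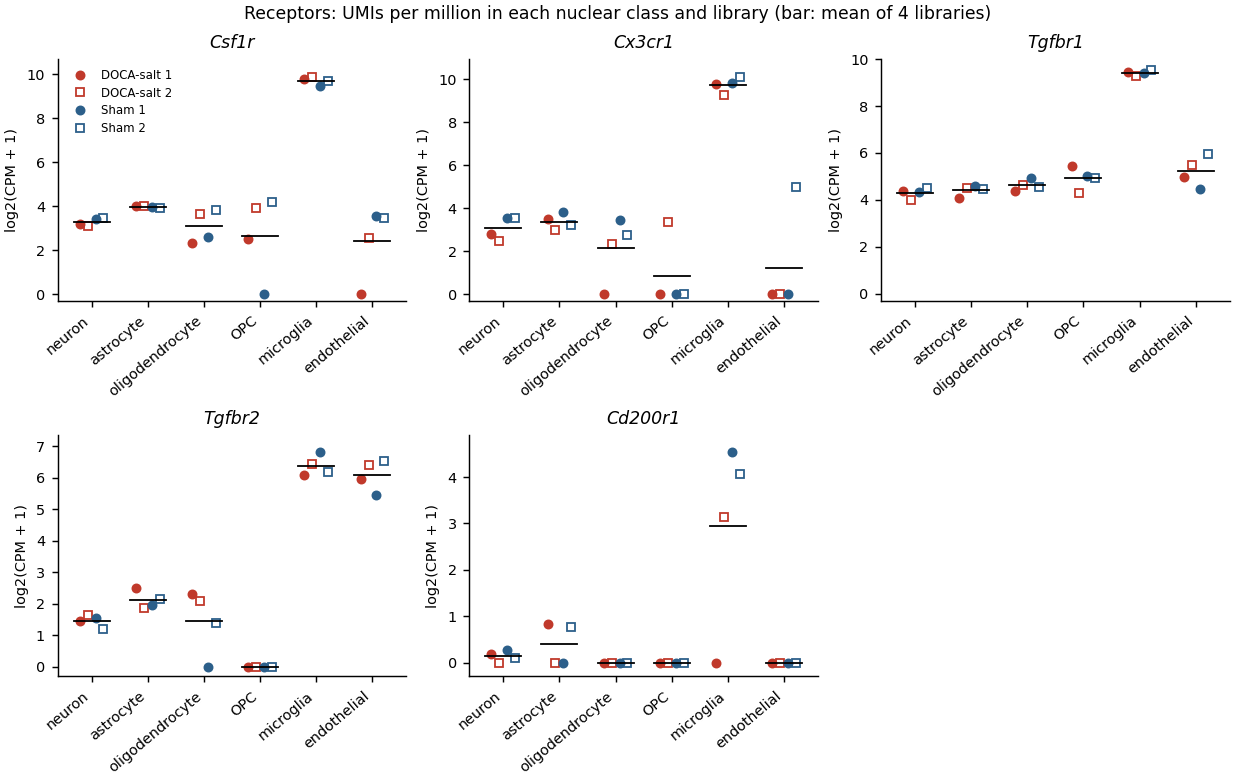
Level of the 4 receptors and of *Cd200r1* as log2(CPM + 1) in the 6 classes tested (symbols as for the ligands, bars at the mean of the 4 log values). *Csf1r*, *Cx3cr1* and *Tgfbr1* stand apart in microglia in all 4 libraries, *Tgfbr2* is high in microglia and endothelium, and *Cd200r1* rests on 4 microglial UMIs.

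Counted over the fit across classes, which tested 9 of the 10 genes, microglia were higher for 5 (*Csf1r*, *Cx3cr1*, *Tgfb1*, *Tgfbr1* and *Tgfbr2*) and lower for 1 (*Cx3cl1*), beside 8.7% and 4.84% of all genes. Endothelium was higher for 4 (*Cd200*, *Tgfb1*, *Tgfb2* and *Tgfbr2*, against 9.3% of all genes) and lower for 1 (*Csf1r*, against 3.83%). Neurons were higher for 2 (*Cd200* and *Cx3cl1*, against 27.2%) and lower for 5 (against 24.3%). Among these 5 were *Csf1r*, *Cx3cr1* and *Tgfbr1*, for which the mean of the others includes the far higher microglial level. Neurons differed from microglia by -6.70, -6.95 and -5.28 on the log2 scale. From each remaining class they differed by -0.85 to 0.31, -0.42 to 1.2 and -1.31 to -0.28. Every class called lower for these genes had microglia in its reference. Astrocytes were higher for 1 (*Tgfb2*, against 11.8%) and lower for 1 (*Tgfbr1*, against 8.72%). Oligodendrocytes were higher for 1 (*Csf1*, against 14.2%) and lower for 5 (against 12.1%). These 5 included *Csf1r* and *Tgfbr1*, for which neurons were no higher than oligodendrocytes (-0.37 ± 0.29 and -0.55 ± 0.19, neurons minus oligodendrocytes). OPC were higher for 0 (against 11.1%) and lower for 4 (against 8.77%), of which *Tgfb1* and *Tgfbr2* were at 0. Their OPC limit of 4.57 CPM lay above the pooled levels in neurons (1.71 and 1.82 CPM), astrocytes (1.87 and 3.27 CPM) and oligodendrocytes (2.75 and 2.14 CPM). The OPC calls for *Tgfb1* and *Tgfbr2* therefore do not place OPC below those classes. With OPC at 0, *Tgfb1* and *Tgfbr2* had no usable estimate in neurons (SE 51.54 and 60.39 on the log2 scale). The same held for *Tgfb1* in astrocytes (SE 18.25) and *Tgfbr2* in oligodendrocytes (SE 14.05). The counts for these classes therefore do not show that these genes were level with the others. The endothelial *Csf1r* call rested on 3 UMIs and did not hold without any 1 of the libraries, and the microglial *Cx3cl1* call did not hold without DOCA-salt 1 (FDR 0.0558) or DOCA-salt 2 (FDR 0.137). The astrocytic *Tgfb2* call did not hold without DOCA-salt 2 (FDR 0.294) or Sham 2 (FDR 0.0875). The neuronal *Cx3cr1* difference turned to 0.20 without DOCA-salt 2 and 0.22 without Sham 2. *Cx3cr1* had UMIs in OPC in DOCA-salt 2 alone (2 UMIs) and in endothelium in Sham 2 alone (3 UMIs). In each of these fits the mean of the other classes thus held a class at 0, so these values do not describe the neuronal level.

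The genes whose levels most resembled each one, by Pearson's r of log2(CPM + 1) over 24 class-by-library sums, were microglial genes for *Cx3cr1* (*Trem2*, 0.986, *Capn3* and *Siglech*, both 0.952), *Csf1r* (*Fcrls*, 0.944, *Ctss*, 0.94, and *Fcgr3*, 0.935) and *Tgfbr1* (*C1qb*, 0.966, *Naip5*, 0.954, and *C3ar1*, 0.947). *Tgfb1* lay nearest *Stab1* (0.959), *Adap2* (0.956) and *Fes* (0.95), and *Tgfbr2* nearest *Ctsh* (0.967) and *Cd34* (0.947). The nearest were *Kcna4* (0.868), *5330434G04Rik* (0.864) and *Cacna2d3* (0.85) for *Cx3cl1*, *Nedd4l* (0.84), *Unc5d* (0.795) and *Dffb* (0.785) for *Cd200*, and *Gm16638* (0.923), *Isg20l2* (0.906) and *Epb41l4a* (0.905) for *Il34*. *Csf1* lay nearest *Smim15* and *Spg20* (both 0.914) and *Fmnl2* (0.896), and *Tgfb2* nearest *Syne2* (0.863), *Arl4a* (0.861) and *Stom* (0.86). The sums of a library share its depth and stray RNA.

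Of 32 other genes of these pathways, 20 were tested across classes. Neurons were higher for 0 and lower for 15, beside 27.2% and 24.3% of all genes. The mean of the other classes again included microglia. Microglia were higher for 13 and lower for 1 (*Ptprz1*, a further receptor of IL34), beside 8.7% and 4.84% of all genes. The 13 included *Ctss* (cathepsin S, which releases soluble CX3CL1) at 1103, 848, 830 and 839 CPM, the integrin chain gene *Itgb5*, the shedding protease gene *Adam17* and the TGF-beta feedback inhibitor gene *Smad7* at 111, 86.4, 157 and 182 CPM. Also among them were *Spi1*, *Irf8*, *Runx1* and *Sall1*, which encode transcription factors of microglia. *Smad7* was also called higher in oligodendrocytes (log2 difference 1.67 ± 0.12, FDR 4.83e-17), at 199.9, 150.2, 201 and 138 CPM. *Cd200r1* was all but undetected. It had 0, 1, 1 and 2 UMIs in microglia and 17 in the 4 libraries together, so the receptor side of the CD200 axis was below what this depth can describe.

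Other genes act on the release and reception of TGF-beta. *Itgb8*, the integrin chain that frees TGF-beta from its latent form, was highest in OPC, at 234, 258, 236 and 245 CPM. Its partner *Itgav* stood in OPC at 206, 258, 110.3 and 204 CPM, above the other classes tested except in Sham 1, where microglia had 157 CPM on 7 UMIs. Both were called higher in OPC than in the other classes, with an FDR of 2.63e-13 for *Itgb8* and 3.09e-11 for *Itgav*, and both were lower in neurons. *Ptprz1* stood in OPC at 2223, 2211, 1575 and 1992 CPM. *Nrros*, which holds latent TGF-beta 1 on microglia, had 7, 3, 0 and 2 UMIs there. *Acvrl1* and *Eng*, which encode a type I receptor and a co-receptor, stood in endothelium at 275, 162, 267 and 205 CPM and at 428, 419, 396 and 287 CPM. *Eng* was also among the genes called higher in microglia, at 29.6, 39.3, 0 and 55.4 CPM on 4, 5, 0 and 7 UMIs. The mean used there included OPC, where the log2 difference of *Eng* from the other classes was -9.14. That call is therefore weak, and microglia lay far below endothelium. *Tgfbr3*, the co-receptor betaglycan, was highest in endothelium, at 76.5, 19.7, 32.1 and 30.7 CPM, on 5, 4, 3 and 3 UMIs. *Adam10*, the main protease that sheds CX3CL1, was widespread, at 65.1 to 78.6 CPM in neurons and 70.7 to 135 CPM in microglia. *Tgfb3* stayed at 2.12 to 3.15 CPM in neurons, and *Smad3*, a transducer of the receptor complex, had 44.4, 23.6, 44.9 and 23.7 CPM in microglia, on 6, 3, 2 and 3 UMIs.

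DOCA-salt was then compared with Sham within each class and over whole libraries. All 10 genes passed the count filter in neurons and over whole libraries, 8 in astrocytes, 6 in oligodendrocytes, 6 in microglia, 2 in OPC and 2 in endothelium, and 0 of those tested were called in any of these. Of all genes tested, 0% were called in neurons, 0.0268% in astrocytes, 0.0301% in oligodendrocytes, 0.0203% in OPC, 0.0618% in microglia, 0.266% in endothelial nuclei and 0% over whole libraries. At an unadjusted p under 0.05, 1 of the 10 passed in neurons (*Cx3cr1*), 1 of 8 in astrocytes (*Csf1*) and 1 of 10 over whole libraries (*Cx3cr1*), where 8.12, 7.91 and 8.45% of all genes did so. DESeq2 called 0 of those tested in the classes other than astrocytes and over whole libraries. In astrocytes it gave none of them an adjusted p-value, so none could be called there. The lowest FDR among the 10 genes in neurons was 0.0731 with DESeq2 and 0.0631 with edgeR without the count filter. Without DOCA-salt 1, edgeR called *Csf1* and *Cx3cr1* lower in neurons (FDR 0.0417 and 0.0233) and over whole libraries (FDR 0.0485 and 0.0379), and *Csf1* lower in astrocytes (FDR 0.0399), with DOCA-salt 2 then the only library of its group. With 2 libraries a group these tests see only large changes, and the missed threshold does not show that the levels were alike.

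*Cx3cl1* in neurons was higher in both DOCA-salt libraries (220.0 and 189 CPM) than in both Sham libraries (154 and 158 CPM). The groups did not overlap, as was so for 5 of the 10 genes in neurons (*Cx3cl1*, *Il34*, *Tgfb2*, *Cx3cr1* and *Csf1r*) and for 43% of all genes tested there. The log2 fold change was 0.36 ± 0.16 (SE, edgeR FDR 0.625). By neuronal type, GABAergic nuclei had 234, 183, 149 and 146 CPM, a log2 fold change of 0.47 ± 0.19 (FDR 0.693), while glutamatergic nuclei had 212, 222, 206 and 208 CPM, a log2 fold change of 0.04 ± 0.18 (FDR 0.963). Whether these fold changes differed was not tested. Without DOCA-salt 2 the log2 fold change in neurons was 0.42 for *Cx3cl1* (FDR 0.224), 0.13 for *Il34* (FDR 0.743), -0.12 for *Csf1* (FDR 0.805), -0.92 for *Cx3cr1* (FDR 0.158), -0.34 for *Csf1r* (FDR 0.542), 0.10 for *Tgfb2* (FDR 0.862) and 0.08 for *Cd200* (FDR 0.838). Among neurons with at least 2 UMIs of striatal genes, whose share varied between libraries, *Cx3cl1* was 271, 180, 157 and 158 CPM. That limit does not identify striatal cells, so these nuclei may differ in type between the groups. Neurons below the limit for all 4 surrounding regions were 70.4, 52.5, 62.7 and 76.1% of neurons. In them *Cx3cl1* was 182, 187, 149 and 149 CPM (log2 fold change 0.27 ± 0.17, FDR 0.621).

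**Figure D4:**
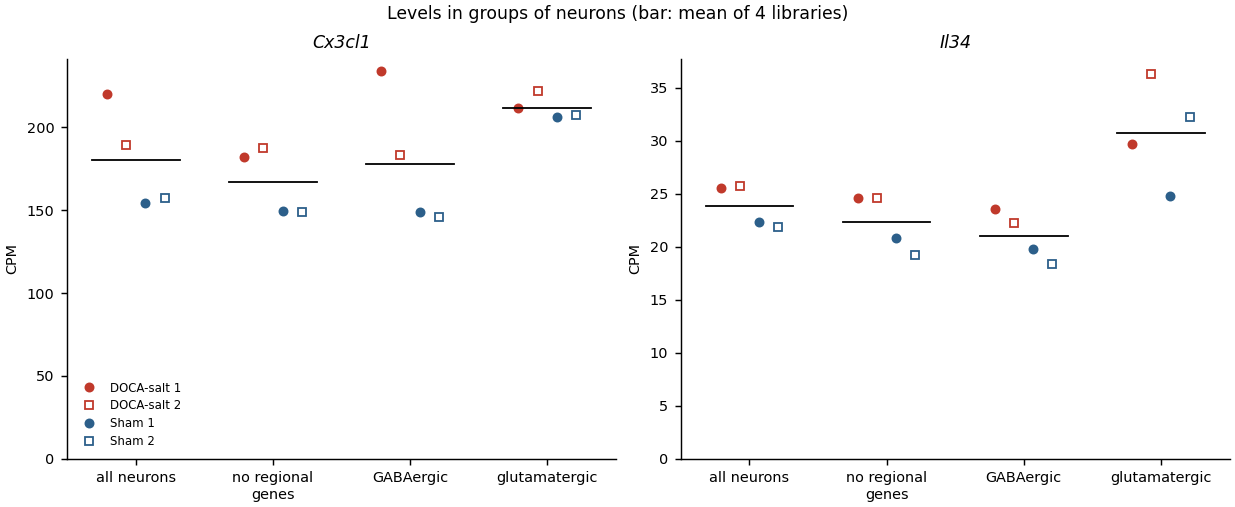
CPM of *Cx3cl1* and *Il34* in all neurons, in neurons without genes of surrounding regions, and in GABAergic and glutamatergic neurons (symbols as for the ligands, bars at the mean of the 4 libraries, axes from 0). *Cx3cl1* is higher in both DOCA-salt libraries than in both Sham libraries in every group, and in glutamatergic neurons the 4 libraries lie between 206 and 222 CPM. The groups come from the same 4 libraries and in part the same nuclei, so they are not separate observations. The share of all genes without overlap was not computed in the subsets.

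For the other ligands, *Cd200* in neurons averaged 240.1 CPM in DOCA-salt and 240.0 CPM in Sham, a log2 fold change of -0.032 ± 0.18 (FDR 0.971). *Il34* averaged 25.6 and 22.1 CPM (0.19 ± 0.16, FDR 0.731), and *Tgfb2* in neurons 16.6 and 13.4 CPM (0.28 ± 0.21, FDR 0.704). The fitted *Csf1* difference had the opposite sign. Its log2 fold change was -0.39 ± 0.25 in neurons (FDR 0.675). In oligodendrocytes it was -0.24 ± 0.35 (FDR 0.87), but 0.47 without DOCA-salt 2. The oligodendrocyte group means were 74.7 CPM for DOCA-salt and 71.4 CPM for Sham. Astrocytes had -0.95 ± 0.29 (FDR 0.46), with 24.3 and 18.8 CPM in DOCA-salt against 43.9 and 35.7 CPM in Sham. These astrocyte values did not overlap, but the share of all genes without overlap was not computed in astrocytes. Endothelial *Cd200* had a log2 fold change of 0.03 ± 0.40 (FDR 0.987), and astrocytic *Tgfb2* of 0.18 ± 0.27 (FDR 0.893).

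In microglia, *Cx3cr1* was lower in both DOCA-salt libraries (866 and 620.4 CPM) than in both Sham libraries (919.6 and 1116 CPM), a log2 fold change of -0.42 ± 0.33 (FDR 0.973). *Csf1r* went the opposite way, with 888 and 958 CPM against 718 and 831 CPM (0.28 ± 0.32, FDR 0.98). These were 2 of the 6 genes tested in microglia with no overlap, beside 36.3% of all genes. *Tgfbr1* (-0.09 ± 0.33, FDR 0.989), *Tgfbr2* (-0.089 ± 0.56, FDR 0.991) and *Tgfb1* (-0.24 ± 0.50, FDR 0.982) overlapped between groups. Sham 1 supplied only 11 microglia. Without DOCA-salt 2 the microglial values were -0.25 for *Cx3cr1* (FDR 0.95) and 0.18 for *Csf1r* (FDR 0.953).

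Over whole libraries *Cx3cr1* stood at 11.4, 7.29, 15.3 and 17.7 CPM, a log2 fold change of -0.88 ± 0.25 (FDR 0.572), and *Csf1* at 25.6, 16.8, 26.6 and 30.8 CPM (-0.49 ± 0.21, FDR 0.599). Whole-library *Cx3cl1* was at 207, 175, 146 and 144 CPM (0.35 ± 0.16, FDR 0.612). Groups did not overlap for 6 of the 10 genes, beside 43% of all genes. In such sums fewer cells of a type and less RNA per cell cannot be told apart. Nuclei gated as microglia made up 1.11, 0.73, 0.499 and 0.992% of kept nuclei. These shares are yields of the gate. Of the *Csf1r* UMIs of a library, nuclei gated as neurons held 38.2 to 47.0%. The mixed nuclei, placed in no class, held 21.1 to 41.1%, and gated microglia 9.82 to 23.4%. For *Cx3cr1* the neuron class held 41.0 to 50.5%, mixed nuclei 24.4 to 34.6% and gated microglia 12.6 to 27.4%. The whole-library values of both genes thus do not follow microglia alone.

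The unadjusted difference of *Cx3cr1* in neurons was the largest of the 10 genes, with 5.96 and 4.66 CPM in DOCA-salt against 10.9 and 10.5 CPM in Sham (log2 fold change -1.05 ± 0.23, unadjusted p = 0.00402, edgeR FDR 0.604). Values of other microglial transcripts in neuron nuclei stand beside it. *Csf1r* was at 8.21 and 7.70 against 9.68 and 10.0 CPM (-0.34 ± 0.21, FDR 0.673), *Ctss* at 12.3 and 10.6 against 21.4 and 19.1 CPM, and the 6 held-out microglial markers summed to 22.4 and 19.8 against 30.9 and 26.4 CPM, where all but *Tyrobp* and *Ly86* were without overlap, as were 43% of all genes in neurons. *Tgfb1*, *Tgfbr1* and *Tgfbr2* overlapped between the groups in neurons, with log2 fold changes of -0.11 ± 0.38, -0.25 ± 0.19 and 0.26 ± 0.39. Their part in the *Cx3cr1* difference was not tested.

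**Figure D5:**
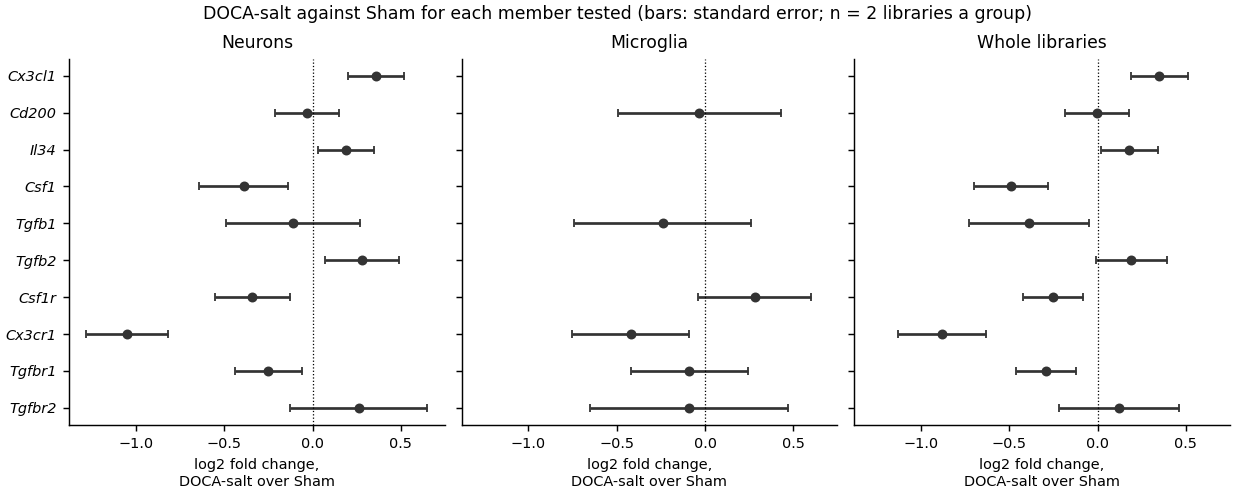
Log2 fold change of DOCA-salt over Sham for the genes tested in neurons, in microglia and over whole libraries (points; bars, standard error; 2 libraries a group; dotted line at 0). *Cx3cr1* in neurons lies furthest from 0, at -1.05, and no point passes the FDR.

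The DOCA-salt effect in each class was also set against its mean over the other classes. *Tgfb1*, *Tgfbr2* and *Cx3cr1* were at 0 in some sums and had no usable estimate in this fit, and *Il34* was not in it. Of the other 6 genes 0 were called in any class, where 0% of all genes were called in 5 classes and 0.0965% in oligodendrocytes. At these shares the count says nothing particular to the 6 genes.

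Of the other pathway genes, 0 were called between treatments in any class or over whole libraries, with 31 tested in neurons and 12 in microglia. Their median log2 fold change was -0.135 in neurons, where that of all genes was 0.028, and -0.085 in microglia, where it was 0.016.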

How the data were processed

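Single-nucleus RNA was measured in 4 libraries of ARC punches, 2 DOCA-salt and 2 Sham. The deposited values are UMI counts per gene and nucleus, made by the authors with Cell Ranger 3.0.1 on mm10, per the submitters' processing notes. The limits for a nucleus were above 200 and below 7000 genes detected, under 25000 UMIs, and a mitochondrial share under 15%. A nucleus entered a class when it held at least 3 distinct markers of that class, the panel exceeded all others and no rival panel passed. Except for neurons, the panel also had to reach 0.15% of the UMIs of the nucleus. The neuron panel was not a rival to the other classes. Astrocyte, tanycyte and ependymal panels were not rivals to each other, nor were those of microglia and macrophages. Nuclei passing for rival classes were left out, which served as the treatment of doublets, and no doublet caller was run. Non-neuronal nuclei that also passed the neuron panel were kept when their own panel held more UMIs, so mixtures with neurons could remain. Counts were summed per class and library and tested by edgeR's quasi-likelihood test (edgeR 4.0.16, R 4.3.3, TMM scaling, low counts filtered by filterByExpr) at an FDR (Benjamini-Hochberg over all genes tested) of 0.05, with the library as a block between classes. The SE given with edgeR values is the absolute log2 fold change over the square root of the F statistic. It therefore grows very large where F is near 0. DESeq2 1.42.0 was an alternative. Classes with at least 10 nuclei in every library were tested. Python 3.11.15 was used for the rest, and the procedure was tested on simulated data. Named genes were the 10 ligands and receptors, genes from a list of 32 pathway genes that were called in a class or that the ligands and receptors need, and the 3 genes most like each in level with at least 50 UMIs. *Fcrls*, *Siglech*, *C1qb* and *Stab1* among the latter were themselves gate markers. Some genes that this rule names are not reported here. Coordinates are from GENCODE vM21 on GRCm38. The genes, lists and tests were chosen with earlier results of these data known. Depth was 21255137 to 69382757 UMIs a library. Intervals cover counting error only. Comparisons of neuronal types, neurons without regional genes, sums thinned to the smallest library and a crossed pairing were added after the data were seen.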

Additional observations from a re-analysis of the deposited data

How the results depend on the processing

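Depth limited microglia (11 to 138 nuclei a library) and endothelium (16 to 108) most. The 19 DOCA-salt results of single genes had 267 values under the alternatives, of which 18 in 7 results changed sign and 5 became significant, all 5 without DOCA-salt 1. The cause of these changes was not tested. *Cd200* in neurons was 0.04 without regional genes and 0.09 in glutamatergic neurons, and -0.15 to 0.08 without 1 library, *Csf1r* in glutamatergic neurons was 0.14, *Csf1* in oligodendrocytes 0.42 after thinning and -0.70 to 0.47 without 1 library, and *Tgfbr2* in microglia 0.02 with all barcodes. *Cd200* in endothelium was -0.08 with all barcodes, -0.11 with a looser gate, -0.24 after thinning and -0.20 to 0.36 without 1 library. Without 1 library, microglial *Tgfbr1* was -0.18 to 0.02, *Tgfb1* -0.94 to 0.66 and *Tgfbr2* -0.48 to 0.12, all as log2 fold changes.

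Genes called between treatments numbered 0 in neurons, 3 in astrocytes, 3 in oligodendrocytes, 1 in OPC, 2 in microglia, 6 in endothelium and 0 over whole libraries. Without a filter they were 287, 53, 69, 0, 9, 13 and 142. DESeq2 called 92 in neurons, 14 in astrocytes, 1 in microglia, 1 in endothelium and 107 over whole libraries. RLE scaling called 1 in microglia. In neurons, 2 were called without a second class's marker, 1 without regional genes and 1 in glutamatergic neurons. Thinned sums gave 5 in oligodendrocytes, 2 in OPC and 1 in endothelium, where all barcodes gave 0, the looser gate 1 and the stricter gate 2. Without 1 library the ranges were 3 to 1750 in neurons, 2 to 338 in astrocytes, 0 to 326 in oligodendrocytes, 0 to 17 in OPC, 2 to 23 in microglia, 0 to 13 in endothelium and 1 to 771 over whole libraries.

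The replicate block called 4 genes in neurons, 41 in oligodendrocytes and 15 in endothelium, and none of the 10 genes. Deviations of same-numbered pools correlated at -0.28 in neurons. With a single difference in each group, this value cannot decide whether the number marks a pairing. The crossed pairing called 62 in neurons, 152 in astrocytes, 100 in oligodendrocytes, 5 in OPC, 0 in microglia and 58 over whole libraries.

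Between classes, leaving out the library block gave 3 of the 10 genes lower in neurons, 0 higher in astrocytes, 3 lower in oligodendrocytes and 2 lower in OPC. The looser gate gave 0 lower in microglia and in endothelium, as did RLE scaling (0) and the stricter gate (0) in endothelium. Without 1 library, 0 to 1 were higher in astrocytes, 2 to 5 lower in oligodendrocytes, 1 to 4 lower in OPC, 0 to 1 lower in microglia and 0 lower in endothelium. *Cx3cr1* without 1 library ranged from -1.31 to 0.22 in neurons and from -1.91 to 0.09 in oligodendrocytes. OPC had no *Cx3cr1* UMI without DOCA-salt 2, and endothelium had none without Sham 2.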

Other observations

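AgRP neurons, which drive feeding, and POMC neurons, which restrain it, were set apart by at least 5 UMIs of *Agrp* or *Pomc*. *Cx3cl1* in AgRP neurons was 153, 154, 126 and 121 CPM, on 407, 1, 37 and 140 nuclei. In POMC neurons it was 191, 136, 167 and 145 CPM, on 285, 18, 56 and 291 nuclei. DOCA-salt 2 thus held almost none of either type. *Cd200* in POMC neurons was 288, 181, 256 and 259 CPM. *Il34* was 10.1, 30.2, 20.2 and 16.0 CPM there, on 21, 4, 14 and 45 UMIs. These levels were not tested between treatments.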
